A study of Mus musculus with 10 samples.

Results

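Plasma proteins are for the most part secreted by hepatocytes, and their transcripts were followed here in RNA from mouse liver endothelial cells. The set was given by name and holds 43 genes for carrier proteins, apolipoproteins, clotting and fibrinolysis factors, acute phase proteins, matrix-binding proteins, complement C3 and the secreted signals Hamp and Lect2. All 43 were found among the 55385 genes listed, by stable Ensembl identifier, and 42 of the 15043 genes with enough counts to be tested were members. Orm2 was the member that did not pass the filter on low counts. The libraries were made from endothelial cells, and the members together took 0.097 to 0.321% of the counts of a library.

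The series holds 5 libraries labelled Alk1-HEC-KO with the genotype KO and 5 libraries labelled Control with the genotype WT. Alk1 is an alias of Acvrl1, an endothelial receptor for bone morphogenetic proteins. Non-parenchymal liver cells were taken from a Nycodenz density gradient, a step that leaves most hepatocytes behind, and endothelial cells were captured with magnetic beads against CD146. The libraries were sequenced on a BGISeq-500 instrument. The sources used here give neither the age of the mice, nor the Cre driver, nor the deleted exons. Nor do they tie the libraries to separate animals, and a p-value then measures only how far these samples differ, which may be technical.

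Transcripts of the targeted gene were higher in the knockout-labelled libraries. Acvrl1 had 239, 246, 250, 258 and 245 CPM in the knockout-labelled libraries, against 124, 125, 136, 114 and 135 CPM in the controls. Its log2 fold change was 0.96 (adjusted p = 1.7e-07, edgeR), and an exact two-sided permutation test gave p = 0.0079, the smallest that 252 assignments allow. The deleted part is not known here and counts over the whole gene do not test it, so the first group is called the knockout-labelled libraries throughout, and every direction below follows the labels. The sum of 10 endothelial marker genes ran from 18479 to 20045 CPM in the knockout-labelled libraries and from 24204 to 27112 CPM in the controls. Of these markers 6 were called lower and 2 higher, and in CPM 6 were lower and 3 higher without overlap. CPM is the count divided by the TMM-scaled library size and multiplied by 1e+06. Mitochondrial transcripts took 3.45 to 4.32% of the counts in the knockout-labelled libraries and 4.27 to 6.43% in the controls.

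Hepatocytes make most of the protein of blood plasma. Their secretory genes are driven together by liver-enriched factors such as HNF1 and HNF4, and many of them belong to families that arose by duplication and still lie side by side. Several change along the axis between the portal and the central vein, and others rise in the acute phase response, when interleukin-6 from inflamed tissue acts on the liver. In RNA from a purified population of another cell type, fewer hepatocytes carried over and less of a transcript per hepatocyte cannot be told apart. Which cells in the libraries held the transcripts of each member, Trf and C3 among them, was not tested.

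The promoters of Lect2 and Alb are shown because Lect2 had the largest fold change of the members and Alb was the most abundant in CPM. Alb hardly differed between the groups, and neither did Trf or Ambp. Each line gives 250 bases before the gene's start, 5′ to 3′ on the strand of the gene, from RefSeq on GRCm38.p6. Lect2 is read from chr13:56548539-56548788 on the minus strand and Alb from chr5:90460620-90460869 on the plus strand. Capitals mark the letters GTTAAT, a core of the HNF1 site, and in Lect2 also ATCAAAG, the reverse strand of CTTTGNT, a core of the TCF/LEF site that beta-catenin works through.
Lect2: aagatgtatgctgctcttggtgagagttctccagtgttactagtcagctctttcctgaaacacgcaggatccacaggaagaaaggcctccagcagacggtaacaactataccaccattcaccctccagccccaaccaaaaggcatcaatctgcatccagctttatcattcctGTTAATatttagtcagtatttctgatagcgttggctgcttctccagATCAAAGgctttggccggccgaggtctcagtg
Alb: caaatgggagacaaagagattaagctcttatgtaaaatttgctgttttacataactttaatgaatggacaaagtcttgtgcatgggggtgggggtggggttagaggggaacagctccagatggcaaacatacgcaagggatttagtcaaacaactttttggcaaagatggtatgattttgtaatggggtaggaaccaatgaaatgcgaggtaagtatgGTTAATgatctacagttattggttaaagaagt
In Lect2 the first match lay at positions -78 to -73 from the RefSeq start and the other at -32 to -26, and in Alb the match lay at -32 to -27. Positions count back from the end of each printed line. In both genes that point lies upstream of the start in the GENCODE M21 gene coordinates given below, from which the matches would lie further away. A window was listed for 33 of the 43 members. On either strand, GTTAAT was found in 6 of the 33 (18.2%), against 7.49% of the 27025 genes with a window. CAAAGTNCA, a core of the HNF4 site, was found in 2 of the 33 (6.06%), against 1.40% of all, and CTTTGNT in 9 of the 33 (27.3%), against 18.1% of all. The HNF4 and TCF/LEF cores share the letters CTTTG on 1 strand and can overlap, and GTTAAT and CTTTGNT can overlap at their ends. A match is a run of letters and not a binding site.

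In all, 13 of the 42 members tested were lower in the knockout-labelled libraries and 0 were higher, at an adjusted p under 0.05 in edgeR's quasi-likelihood test with Benjamini-Hochberg adjustment over all 15043 genes. That is 31.0% of the members, beside 9.08% of all genes tested that were lower and 10.6% that were higher. At an unadjusted p under 0.05, 27 members were lower and 0 were higher. The fitted log2 fold change was below 0 in 40 of 42 members, beside 7519 of the 15043 genes, and its median over the members was -1.31, beside 0.00 over all genes. The members were measured in the same libraries and are not independent of each other. The 29 members that did not pass ranged from -1.84 to 0.20 in log2 fold change.

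The count of 13, and its excess over all genes, changed when single libraries were left out and with the tool. The count was 4, 5, 3, 3 and 2 without knockout-labelled libraries 1, 2, 3, 4 and 5 in turn. Those were 9.3, 11.6, 6.98, 6.98 and 4.65% of the members tested, beside 7.91, 7.44, 8.49, 7.41 and 7.95% of all genes. The count was 2 without control 2, 3 without control 4, 22 without control 5, 13 without control 1 and 10 without control 3. These were 4.76, 7.14, 52.4, 30.2 and 23.8% of the members, beside 7.67, 6.71, 8.27, 8.6 and 8.92% of all genes. The median log2 fold change of the members ran from -1.51 to -1.03 over these 10 fits. DESeq2 called 22 members lower (52.4%, beside 10.7% of all genes) and limma-voom 2 (4.76%, beside 8.54%), and neither called any higher. Lect2 was called in each of the 10 fits with a library left out and in every alternative in which it was tested, with a largest adjusted p of 0.0092.

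**Figure D1:**
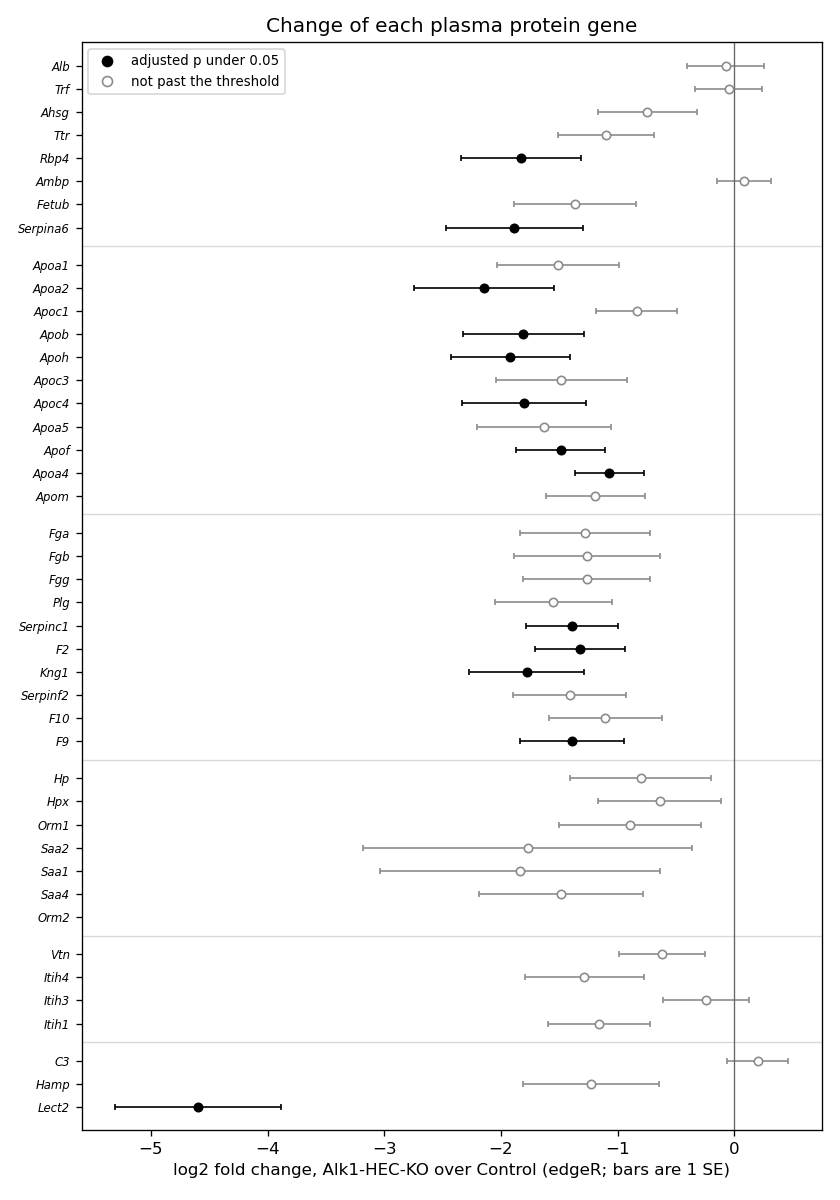
Log2 fold change of the 42 tested plasma protein genes, knockout-labelled over control libraries, with the standard error of the edgeR fit as bars, grouped by role (Orm2 was not tested and has no point). Filled points mark the 13 genes with an adjusted p under 0.05, and Lect2 lies apart at -4.60 while C3 and Ambp lie just above 0.

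Among the secreted signals, Lect2 was the clearest case. Lect2 (ENSMUSG00000021539.9, chr13:56542464-56548502, minus strand) encodes a hepatocyte cytokine and is a known beta-catenin target in mouse liver. It had 0.126, 0.0822, 0.169, 0.126 and 0.167 CPM in the knockout-labelled libraries, against 1.60, 4.03, 1.57, 8.59 and 1.07 CPM in the controls. Every knockout-labelled library lay below every control, and this was the only member with no overlap between the groups in CPM (1 of 42 lower and 0 higher, beside 7.05% of all genes lower and 8.4% higher without overlap). The estimated counts behind these values were 3, 2, 4, 3 and 4 in the knockout-labelled libraries and 38, 94, 36, 191 and 25 in the controls, so the knockout-labelled levels carry a large counting error. The log2 fold change was -4.60 ± 0.71 (SE, n = 5 per group, adjusted p = 0.0011, edgeR), which is a fitted 24.2-fold lower level. Hamp encodes hepcidin, the hormone that limits iron uptake, and averaged 3.47 ± 1.66 CPM in the knockout-labelled libraries and 8.16 ± 6.16 CPM in the controls (SD, n = 5), with a log2 fold change of -1.23 (adjusted p = 0.18, edgeR). C3, the central complement component, had 211, 265, 213, 189 and 310 CPM in the knockout-labelled libraries, against 156, 344, 143, 229 and 161 CPM in the controls, and its groups overlapped (log2 fold change 0.20 ± 0.26, adjusted p = 0.65, edgeR).

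Apolipoproteins, the protein coats of lipoprotein particles, gave the most calls in edgeR: 6 of 11 were lower, beside 9.08% of all genes. The other 5 did not pass, and the median log2 fold change was -1.51. DESeq2 called 10 of the 11 lower, beside 10.7% of all genes, and limma-voom 1, beside 8.54%. Apoa2 (ENSMUSG00000005681.12, chr1:171225054-171226379, plus strand), a structural protein of high-density lipoprotein, had 22.2, 22.8, 9.27, 18.3 and 9.58 CPM in the knockout-labelled libraries, against 38.4, 108, 46.3, 152 and 18.7 CPM in the controls. Controls 2 and 4 were on top, and control 5 lay below 2 of the knockout-labelled libraries (log2 fold change -2.14 ± 0.60, adjusted p = 0.037, edgeR). Apob, the scaffold of very low density lipoprotein, had 11.1, 9.33, 8.38, 12.5 and 5.27 CPM in the knockout-labelled libraries, against 20.1, 54.6, 22.7, 57.4 and 8.71 CPM in the controls. Apart from control 5, every control lay above every knockout-labelled library, and the fitted level was 3.51-fold lower (adjusted p = 0.039, edgeR). Apoh, a phospholipid-binding plasma glycoprotein, had 7.30, 9.33, 5.63, 7.44 and 3.97 CPM in the knockout-labelled libraries, against 14.2, 38.4, 18.7, 48.7 and 7.69 CPM in the controls. It showed the same layout, with control 5 inside the knockout-labelled range (3.79-fold lower, adjusted p = 0.029, edgeR).

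Apof, an inhibitor of lipid transfer in plasma, had 2.90, 2.67, 1.95, 2.78 and 1.46 CPM in the knockout-labelled libraries, against 4.33, 9.57, 6.15, 10.6 and 2.39 CPM in the controls. Only control 5 overlapped the knockout-labelled range, and Apof had the smallest p of the apolipoproteins (log2 fold change -1.49 ± 0.38, adjusted p = 0.019, edgeR). Apoc4, a minor apolipoprotein of triglyceride-rich particles, had 4.95, 4.27, 1.90, 2.65 and 2.05 CPM in the knockout-labelled libraries, against 6.47, 15.2, 7.20, 22.9 and 3.54 CPM in the controls. Apoa4, made in mouse liver as well as intestine, had 1.93, 0.904, 1.69, 1.89 and 1.34 CPM in the knockout-labelled libraries, against 4.04, 4.59, 3.01, 3.24 and 1.45 CPM in the controls. Apoc4 was 3.49-fold lower (adjusted p = 0.042, edgeR) and Apoa4 2.10-fold lower (adjusted p = 0.023, edgeR), and in both the groups overlapped through control 5. Apoa1, the main protein of high-density lipoprotein and one of the 6 most abundant members in CPM, had 36.7, 52.2, 23.1, 45.7 and 19.5 CPM in the knockout-labelled libraries, against 60.2, 168, 77.6, 172 and 28.9 CPM in the controls. It did not pass the test (log2 fold change -1.51 ± 0.53, adjusted p = 0.08, edgeR). Apoa5, Apoc1, Apoc3 and Apom had log2 fold changes of -1.63, -0.84, -1.48 and -1.19 with adjusted p from 0.069 to 0.13 in edgeR.

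Carrier proteins divided in edgeR into 2 of 8 that were lower, beside 9.08% of all genes, and 6 that did not pass. Their median log2 fold change was -0.92. DESeq2 called 4 of the 8 lower and limma-voom 0. Alb (ENSMUSG00000029368.10, chr5:90460897-90476602, plus strand) encodes albumin, the most abundant plasma protein. It had 457, 727, 364, 376 and 309 CPM in the knockout-labelled libraries, against 395, 708, 344, 644 and 264 CPM in the controls. The groups overlapped across almost their whole range, and in both of them library 2 was highest and library 5 lowest (log2 fold change -0.08 ± 0.33, adjusted p = 0.91, edgeR). Trf, which carries iron, had 303, 317, 192, 238 and 171 CPM in the knockout-labelled libraries, against 159, 397, 253, 289 and 167 CPM in the controls, also overlapping (log2 fold change -0.05 ± 0.29, adjusted p = 0.93, edgeR). The sign of the Alb and Trf values flips under other scalings or when single libraries are left out, so they have no direction here.

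Rbp4, the vitamin A carrier, had 14.6, 18.6, 9.98, 12.7 and 7.65 CPM in the knockout-labelled libraries, against 26.9, 67.5, 29.0, 88.2 and 14.0 CPM in the controls. Serpina6, which binds glucocorticoids, had 0.336, 1.31, 1.14, 0.799 and 1.30 CPM in the knockout-labelled libraries, against 2.10, 5.19, 1.92, 8.05 and 0.939 CPM in the controls. In both genes control 5 fell inside the knockout-labelled range and controls 2 and 4 stood far above it. Rbp4 was 3.55-fold lower (adjusted p = 0.038, edgeR) and Serpina6 3.70-fold lower (adjusted p = 0.048, edgeR). Ttr, which carries thyroxine and holds Rbp4 in plasma, had 35.5, 36.5, 27.5, 28.3 and 23.3 CPM in the knockout-labelled libraries, against 37.8, 91.7, 48.8, 121 and 25.4 CPM in the controls. Ahsg, a mineral-binding fetuin, had 70.1, 81.4, 58.2, 59.0 and 44.4 CPM in the knockout-labelled libraries, against 65.2, 176, 80.5, 168 and 36.7 CPM in the controls. Neither passed: the log2 fold change was -1.10 for Ttr (adjusted p = 0.099, edgeR) and -0.75 for Ahsg (adjusted p = 0.27, edgeR). Fetub, its neighbour, had a log2 fold change of -1.37. Ambp, the precursor of alpha-1-microglobulin and bikunin, averaged 44.5 ± 4.72 CPM in the knockout-labelled libraries and 42.1 ± 15.5 CPM in the controls (SD, n = 5), with a log2 fold change of 0.08 (adjusted p = 0.86, edgeR).

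Of the clotting and fibrinolysis factors, 4 of 10 were lower in edgeR, beside 9.08% of all genes. The other 6 did not pass, and the median log2 fold change was -1.36. DESeq2 called 6 of the 10 lower and limma-voom 0. Kng1, the precursor of bradykinin, had 8.35, 8.75, 5.16, 8.49 and 3.64 CPM in the knockout-labelled libraries, against 13.2, 36.9, 18.2, 42.0 and 8.03 CPM in the controls. Serpinc1, the thrombin inhibitor antithrombin, had 12.3, 12.7, 7.49, 12.2 and 7.70 CPM in the knockout-labelled libraries, against 17.4, 42.1, 21.8, 45.1 and 11.4 CPM in the controls. In each, controls 1 to 4 lay above every knockout-labelled library and control 5 lay among them. Kng1 was 3.44-fold lower (adjusted p = 0.034, edgeR) and Serpinc1 2.63-fold lower (adjusted p = 0.038, edgeR). F2, which encodes prothrombin, had 10.7, 14.1, 8.80, 11.2 and 8.37 CPM in the knockout-labelled libraries, against 17.4, 41.0, 18.9, 44.4 and 11.5 CPM in the controls. F9, clotting factor IX, had 1.22, 1.56, 0.592, 1.09 and 0.711 CPM in the knockout-labelled libraries, against 1.47, 4.20, 2.05, 4.90 and 1.02 CPM in the controls. F2 was 2.50-fold lower (adjusted p = 0.041, edgeR) and F9 2.62-fold lower (adjusted p = 0.048, edgeR), again with controls 2 and 4 on top.

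The 3 chains of fibrinogen kept close to each other, with log2 fold changes of -1.28 for Fga, -1.26 for Fgb and -1.27 for Fgg, and none of the 3 passed (adjusted p = 0.15, 0.21 and 0.15, edgeR). Fga averaged 22.6 ± 10.1 CPM in the knockout-labelled libraries and 54.8 ± 37.1 CPM in the controls (SD, n = 5). Plg, which encodes plasminogen, had a log2 fold change of -1.55 (adjusted p = 0.062, edgeR). Serpinf2, the plasmin inhibitor, stood at -1.41 (adjusted p = 0.073, edgeR) and F10, clotting factor X, at -1.11 (adjusted p = 0.15, edgeR).

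Matrix-binding proteins gave 0 calls in 4 in edgeR and limma-voom and 1 lower in DESeq2. At an unadjusted p under 0.05, 2 were lower, and the median log2 fold change was -0.89. With 9.08% of all genes called lower in edgeR, 0 of 4 does not set the group apart from all genes. Itih1, a heavy chain that is joined to hyaluronan, had the smallest p of these, with 3.78, 4.19, 2.92, 3.83 and 2.55 CPM in the knockout-labelled libraries, against 4.67, 13.2, 5.58, 12.8 and 2.35 CPM in the controls. The controls spanned the knockout-labelled range from below to above (log2 fold change -1.16 ± 0.44, adjusted p = 0.093, edgeR). The other heavy chains Itih3 and Itih4 had log2 fold changes of -0.24 (adjusted p = 0.71, edgeR) and -1.29 (adjusted p = 0.12, edgeR). Vtn encodes vitronectin, a cell adhesion protein, and averaged 22.1 ± 1.71 CPM in the knockout-labelled libraries and 34.1 ± 19.1 CPM in the controls (SD, n = 5, log2 fold change -0.62, adjusted p = 0.29, edgeR).

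Acute phase proteins, which hepatocytes release in inflammation, gave no calls. Of 7 members 6 were tested and 0 passed in either direction in edgeR, DESeq2 or limma-voom, and 0 had an unadjusted p under 0.05. With 9.08% of all genes called lower in edgeR, 0 of 6 does not set the group apart from all genes. Its median log2 fold change was -1.19, beside -1.31 over all members. Saa1, a serum amyloid A apolipoprotein that rises steeply in inflammation, had 5.37, 3.53, 0.169, 1.01 and 0.125 CPM in the knockout-labelled libraries, against 0.547, 18.8, 13.9, 1.53 and 1.84 CPM in the controls. Saa2, its near copy, had 6.0, 4.27, 0.127, 0.715 and 0 CPM in the knockout-labelled libraries, against 0.420, 18.2, 17.8, 0.585 and 1.07 CPM in the controls. In both genes knockout-labelled libraries 1 and 2 and controls 2 and 3 were high, while the other 6 libraries stayed at or below 1.84 CPM. Saa1 had a log2 fold change of -1.84 ± 1.20 (adjusted p = 0.34, edgeR) and Saa2 of -1.77 ± 1.41 (adjusted p = 0.44, edgeR), each with an error above 1 log2 unit.

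Saa4 is the constitutive serum amyloid A and was listed in this group beside Saa1 and Saa2. It had the smallest p of the group, with 4.28, 1.36, 0.888, 1.60 and 0.586 CPM in the knockout-labelled libraries, against 1.51, 7.94, 3.58, 9.94 and 1.45 CPM in the controls. Among the controls, 2 and 4 were on top (log2 fold change -1.48 ± 0.70, adjusted p = 0.18, edgeR). Hp encodes haptoglobin, which binds free haemoglobin, and had 49.6, 29.4, 12.2, 17.7 and 8.32 CPM in the knockout-labelled libraries, against 17.4, 77.0, 55.1, 37.4 and 17.4 CPM in the controls. Knockout-labelled library 1 and controls 2 and 3 were highest (log2 fold change -0.80, adjusted p = 0.41, edgeR). Hpx, the haem carrier haemopexin, had a log2 fold change of -0.64 (adjusted p = 0.45, edgeR) and Orm1, an alpha-1-acid glycoprotein, of -0.89 (adjusted p = 0.36, edgeR). Orm2, which was not tested, had 7, 10, 2, 3 and 0 estimated counts in the knockout-labelled libraries and 4, 43, 71, 16 and 10 in the controls.

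Neutrophil markers were high in the libraries with high Saa1 and Saa2. The 7 markers summed to 470, 159, 53.2, 58.2 and 16.3 CPM in the knockout-labelled libraries and 29.7, 182, 263, 45.4 and 52.7 CPM in the controls, so that knockout-labelled libraries 1 and 2 and controls 2 and 3 held the 4 highest sums. The 7 acute phase genes, Saa4 included, summed to 105, 87.1, 26.5, 48.2 and 21.3 CPM in the knockout-labelled libraries and 41.4, 211, 143, 97.5 and 42.7 CPM in the controls. In this sum control 4, at 97.5 CPM, lay above knockout-labelled library 2, at 87.1 CPM, though its neutrophil sum was 45.4 CPM. Of the markers 0 of 6 tested passed in either direction in edgeR, DESeq2 or limma-voom, 0 had an unadjusted p under 0.05, and none was at 0 in every library of a group. The part of neutrophil RNA or of inflammation in the acute phase values was not tested.

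**Figure D2:**
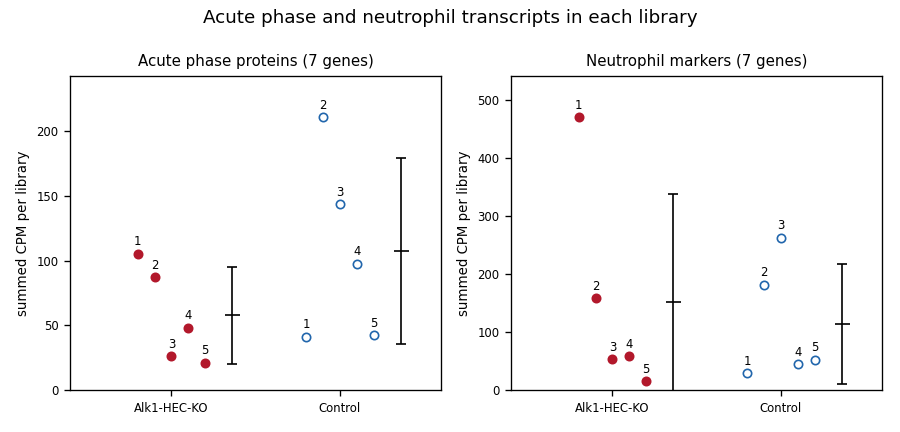
Summed CPM of the 7 acute phase genes (left) and of 7 neutrophil markers (right) in each library, with library numbers beside the points and the mean and SD as bars, the lower bar of the knockout-labelled neutrophil sum being clipped at 0. Knockout-labelled libraries 1 and 2 and controls 2 and 3 hold the highest neutrophil sums, between 159 and 470 CPM, and knockout-labelled libraries 1 and 2 also hold the highest acute phase sums of their group.

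Saa1 and Saa2 lie head to head and are near copies, and their promoters are printed for comparison. The Saa1 line has 250 bases. The Saa2 line has 207, since bases inside the gene by its GENCODE M21 coordinates were left out. Saa1 is read from chr7:46742981-46743230 on the minus strand and Saa2 from chr7:46751583-46751789 on the plus strand, both from RefSeq on GRCm38.p6 and 5′ to 3′ on the strand of the gene. Capitals mark the bases that differ between the 2 lines where they align.
Saa1: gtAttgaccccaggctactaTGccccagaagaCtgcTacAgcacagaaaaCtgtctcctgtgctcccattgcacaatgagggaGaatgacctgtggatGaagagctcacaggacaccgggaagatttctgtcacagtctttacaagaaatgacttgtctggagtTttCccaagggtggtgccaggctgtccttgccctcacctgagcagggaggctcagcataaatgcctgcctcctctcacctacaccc
Saa2: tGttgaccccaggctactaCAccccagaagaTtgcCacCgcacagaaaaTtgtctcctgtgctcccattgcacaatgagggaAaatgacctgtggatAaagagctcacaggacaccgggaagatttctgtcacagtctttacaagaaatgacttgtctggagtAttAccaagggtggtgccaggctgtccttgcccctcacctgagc
Over 206 aligned bases 195 were identical and 11 differed (94.7% identity), with a gap of 1 base. In their transcripts 46.8% of the 31-base words of Saa1 and 44.5% of those of Saa2 also occur in another gene, so the split of reads between them is uncertain. The same holds for Trf (63.8%), Orm2 (34.1%), Hamp (33.7%), Orm1 (27.5%), Kng1 (26.5%) and Apoc4 (12.4%). Of the 43 members, 28 share no such word with another gene and 7 share at most 5%.

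Per length of transcript, Alb and Trf led in both groups. Alb averaged 397 ± 150 TPM in the knockout-labelled libraries and 388 ± 153 TPM in the controls (SD, n = 5), where TPM is a share of all transcripts that takes transcript length into account. Trf averaged 330 ± 98.6 TPM in the knockout-labelled libraries and 352 ± 130 TPM in the controls, within 1 SD of Alb in either group. In the knockout-labelled libraries the next were Apoc1 at 182 TPM, C3 at 121 TPM and Apoa2 at 84.8 TPM. In the controls the next were Apoa2 at 342 TPM, Apoc1 at 298 TPM and Apoa1 at 179 TPM, and Alb, Trf and Apoa2 lay within 1 SD of each other. Lect2 averaged 0.338 ± 0.0935 TPM in the knockout-labelled libraries and 7.64 ± 6.63 TPM in the controls.

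Summed over all 43 genes, the members had 1583, 1936, 1127, 1298 and 1090 CPM in the knockout-labelled libraries and 1313, 3213, 1633, 2869 and 971 CPM in the controls. The group means of these sums were 1407 ± 354 CPM in the knockout-labelled libraries and 2000 ± 986 CPM in the controls (SD, n = 5), and the sums overlapped. They took 0.109 to 0.194% of the counts of a knockout-labelled library and 0.097 to 0.321% of the counts of a control. Alb, Trf and C3 made up 61.3, 67.6, 68.2, 61.9 and 72.5% of the summed members in the knockout-labelled libraries, against 54.0, 45.1, 45.3, 40.5 and 61.1% in the controls. All 5 controls lay below every knockout-labelled library, control 5 by little. These 3 genes were picked after their values were seen, so this share is a description. Without these 3 genes the sums were 612, 628, 359, 495 and 300 CPM in the knockout-labelled libraries and 604, 1764, 893, 1708 and 378 CPM in the controls.

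**Figure D3:**
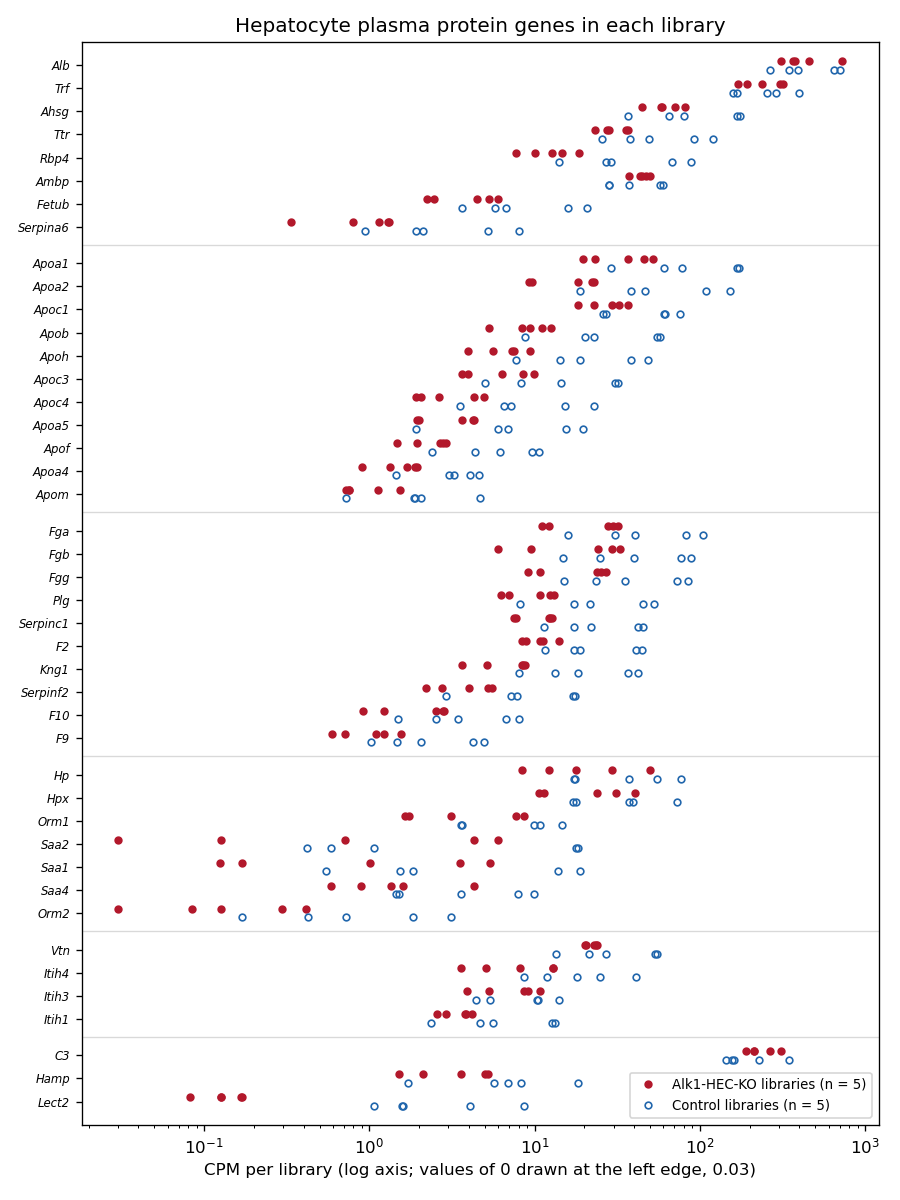
CPM of each of the 43 plasma protein genes (rows, by role) in each library on a log axis, with the knockout-labelled libraries as filled points above the controls as open points, and values of 0 drawn at the left edge. The groups overlap in 42 rows, and only for Lect2 do all 5 filled points lie left of all 5 open points.

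The controls differed among themselves more than the knockout-labelled libraries did. The coefficient of variation of a member had a median of 37.0% in the knockout-labelled libraries and 63.6% in the controls, beside 10.1% in the knockout-labelled libraries and 11.3% in the controls over all genes tested. It was larger among the controls for 39 of 42 members, beside 57.0% of all genes. The highest control was control 2 for 22 members and control 4 for the other 20, beside 38.1% of all genes with either of them on top. The lowest control was control 5 for 36 members. In the knockout-labelled libraries the highest was library 2 for 24 members and library 1 for 15, and library 5 was lowest for 29. The highest library stood a median of 2.43 times above the lowest in the knockout-labelled libraries and 5.64 times in the controls.

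Each member was also set against Alb in the same library. The ratio is given in percent of the Alb CPM and compares libraries, not genes, since CPM does not take length into account. For Apoa2 it was 4.86, 3.14, 2.54, 4.87 and 3.10% in the knockout-labelled libraries and 9.74, 15.3, 13.4, 23.5 and 7.09% in the controls. For Rbp4 it was 3.21, 2.56, 2.74, 3.37 and 2.47% in the knockout-labelled libraries and 6.83, 9.55, 8.41, 13.7 and 5.29% in the controls. For Serpinc1 it was 2.70, 1.75, 2.06, 3.24 and 2.49% in the knockout-labelled libraries and 4.40, 5.96, 6.35, 7.00 and 4.31% in the controls. In these 3 genes the groups did not overlap, with every knockout-labelled library below every control.

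The ratio was lower without overlap for 16 of 42 members (38.1%) and higher without overlap for 0, beside 1.52% of all genes lower and 1.22% higher. The 16 were Ttr, Rbp4, Fetub, Apoa2, Apoc3, Apoc4, Apof, Apoh, Apom, F2, F9, Plg, Kng1, Serpinc1, Itih4 and Lect2. Trf and Ambp were not among them. Trf stood at 66.4, 43.6, 52.6, 63.3 and 55.3% of Alb in the knockout-labelled libraries and 40.3, 56.1, 73.4, 44.8 and 63.3% in the controls, and Ambp at 9.78, 6.83, 13, 9.89 and 14.0% in the knockout-labelled libraries and 7.12, 8.48, 10.8, 8.86 and 10.6% in the controls. This ratio was fixed with results known, so it is a description with no test. Alb itself varied 2.35-fold among knockout-labelled libraries and 2.67-fold among controls, and this spread enters the ratio of every gene. In CPM, 7.05% of all genes were lower and 8.4% higher without overlap. Many members were highest in the same libraries as Alb, so the share over all genes is not a like measure for them. Set against the summed unzonated hepatocyte genes described next, 2 of 42 members, Apoc4 and Lect2, were lower without overlap and 0 higher, beside 1.01% of all genes lower and 1.3% higher. This sum varied 3.38-fold among knockout-labelled libraries and 2.08-fold among controls, and its spread likewise enters every ratio.

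**Figure D4:**
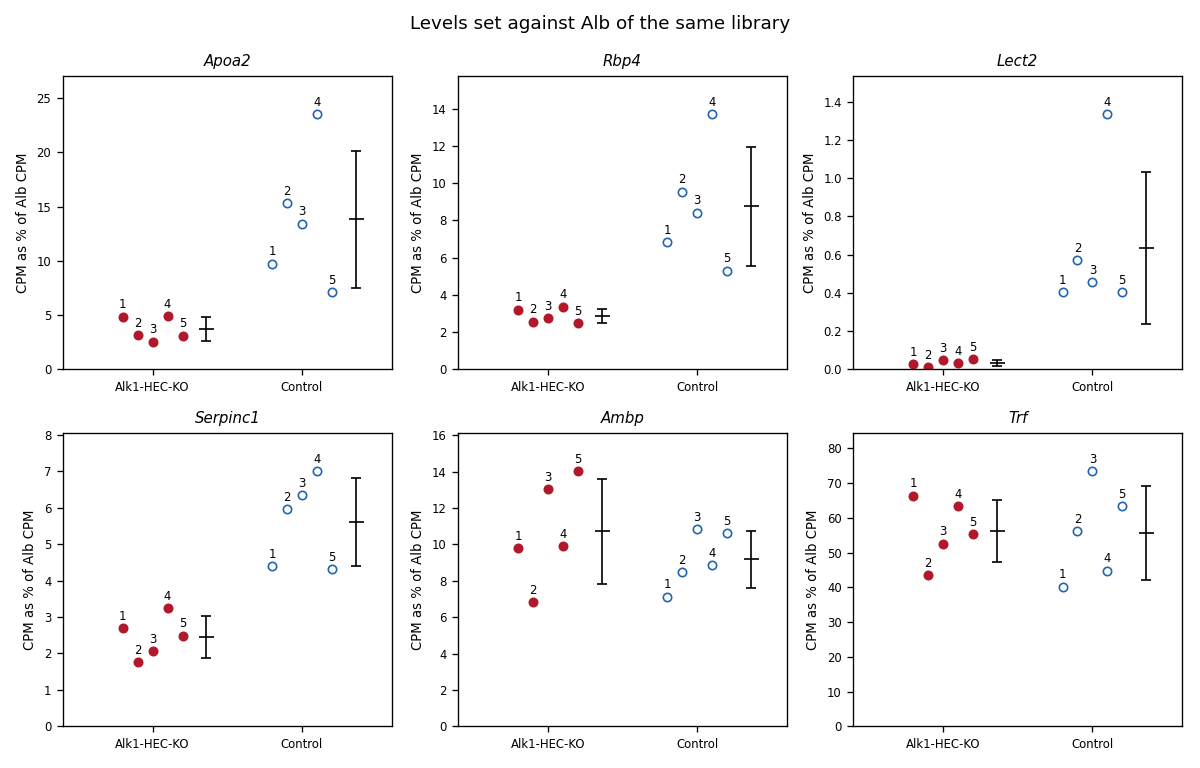
CPM of 6 plasma protein genes as a percentage of the Alb CPM in the same library, with knockout-labelled libraries left of the controls, library numbers above the points and the mean and SD as bars. The knockout-labelled points of Apoa2, Rbp4, Lect2 and Serpinc1 lie below all control points, and those of Trf lie among them, while those of Ambp reach both above and below the control points.

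Other hepatocyte genes in the same libraries give the setting. Of the hepatocyte genes without a known zone, which are enzymes and the carrier Slc10a1, 2 of 18 were lower and 0 higher, with a median log2 fold change of -0.04, beside the -1.31 of the plasma proteins. Their sum was 752, 409, 280, 222 and 239 CPM in the knockout-labelled libraries and 377, 463, 386, 520 and 250 CPM in the controls. The lower ones were Khk, ketohexokinase, at -1.15 ± 0.10 (adjusted p = 6.7e-06, edgeR) and Slc10a1, the bile salt uptake carrier, at -2.41 ± 0.66 (adjusted p = 0.03, edgeR). With the log2 sum of these genes as a covariate in the fit, 4 of the 42 plasma protein genes (9.52%) were called lower, beside 8.73% of all genes. The 4 were Lect2, Apof, Apoc4 and Apoa4. The median log2 fold change of the members in that fit was -1.06, beside -1.31 without the covariate. Rbp4, which lost its call there, stood at -1.48, beside -1.83 without the covariate, and Apoa2 at -1.74, beside -2.14.

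Genes of hepatocytes near the central vein, many of them beta-catenin targets, were called lower in 9 and higher in 1 of 15 tested, with a median log2 fold change of -1.82. Cyp1a2, a drug-metabolising cytochrome, stood at -4.33 ± 0.74 (adjusted p = 0.0035, edgeR). Gulo, the last enzyme of vitamin C synthesis, stood at -3.84 ± 0.60 (adjusted p = 0.002, edgeR). Glul, glutamine synthetase, was the higher one (0.39 ± 0.11, adjusted p = 0.027, edgeR), named after its value was seen. All 9 called lower had no overlap in CPM between the groups, where 1 of the plasma protein genes did. Genes of hepatocytes near the portal vein gave 0 calls in 15 in edgeR and limma-voom, with a median of 0.56. At an unadjusted p under 0.05, 1 was lower and 3 were higher, and DESeq2 called 1 lower and 1 higher. The smallest p among them were those of Sds, serine dehydratase (1.17, adjusted p = 0.077, edgeR), and Hsd17b13, a lipid droplet protein (0.78, adjusted p = 0.093, edgeR).

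A wider list of 54 other plasma protein genes, many of which endothelial and other liver cells also make, had 12 of 52 tested lower and 1 higher, with a median of -0.98. Among the lower ones were Pon3, a lactonase of high-density lipoprotein, at -0.32 ± 0.07 (adjusted p = 0.0041, edgeR), and Apoe, which lipoproteins use to bind their receptors, at -0.33 ± 0.07 (adjusted p = 0.0057, edgeR). The higher one, named after its value was seen, was Cp, the copper protein ceruloplasmin, at 0.66 ± 0.15 (adjusted p = 0.0092, edgeR). Bile duct markers were higher for 6 of 7 and lower for 0, and their sum ran from 363 to 619 CPM in the knockout-labelled libraries and from 184 to 265 CPM in the controls. Of 10 Kupffer cell markers 0 were called in either direction in edgeR, DESeq2 or limma-voom, and 1 was higher at an unadjusted p under 0.05. The part of these cells in the plasma protein values was not tested.

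**Figure D5:**
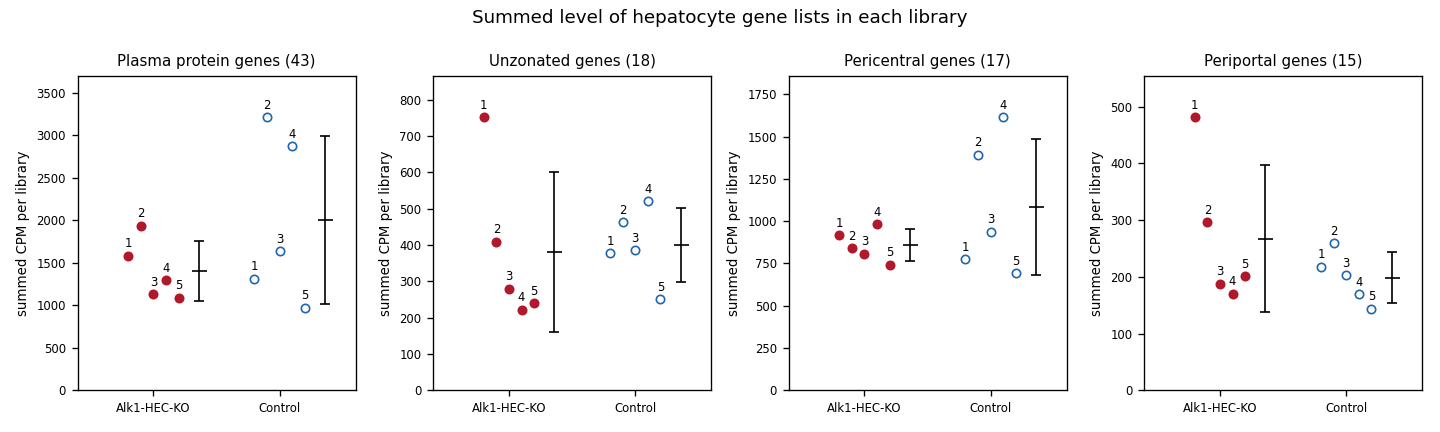
Summed CPM in each library of the plasma protein genes and of the hepatocyte gene lists, with knockout-labelled libraries left of the controls, library numbers beside the points and the mean and SD as bars. The plasma protein sums of controls 2 and 4, at 3213 and 2869 CPM, stand above all others, and the sum of the unzonated genes is highest in knockout-labelled library 1, at 752 CPM.

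Several members are neighbours in the genome. Apoa1, Apoc3, Apoa4 and Apoa5 lie within chr9:46228580-46271919 on GRCm38, and their log2 fold changes ran from -1.63 to -1.07 with 1 of 4 called. Ahsg, Fetub and Kng1 lie within chr16:22891277-23082078 and ran from -1.78 to -0.75 with 1 of 3 called. The heavy chain genes Itih1, Itih3 and Itih4 lie within chr14:30886476-30943289 and ran from -1.29 to -0.24 with 0 of 3 called. The fibrinogen genes lie within chr3:83007724-83049863 and ran from -1.28 to -1.26 with 0 of 3 called. The 3 serum amyloid A genes lie within chr7:46727998-46754313 with 0 of 3 called.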

How the data were processed

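RNA of 10 libraries of mouse hepatic endothelial cells was analysed, 5 labelled Alk1-HEC-KO and 5 labelled Control in the sample titles. The submitters' processing notes name Trim Galore 0.6.4, kallisto 0.4.6 and the build GRCm38.p6. For each gene the deposited files give estimated counts (expected counts that need not be whole) and TPM for each gene, as the authors summed them. The annotation release is not stated, and of 55385 identifiers 55144 matched GENCODE M21. Totals were 23489494 to 23602771 estimated counts per library, which leaves counting error small except for genes with a few counts. No pair of libraries within a group agreed within sampling noise (chi-square per degree of freedom at least 11.4), so all were kept as separate samples.

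After rounding, the counts went into edgeR 4.0.16 (R 4.3.3): filterByExpr with a minimum count of 10 (15043 genes, with 99.87 to 99.9% of all counts), TMM scaling (factors 0.943 to 1.04), robust quasi-likelihood fit on the group alone, Benjamini-Hochberg adjustment over all genes tested, and a threshold of 0.05. Adjusted p-values are from this fit unless another is named. The tests are two-sided. On simulated counts for this comparison (14723 genes tested) the fit called 64.2% of genes changed 1.5-fold, 80.6% of those changed 2-fold and 98.5% of those changed 4-fold, and 4.14% of its calls were false. The changed genes were drawn at random from expressed genes, not from the members. The median coefficient of variation was 37.0% (knockout-labelled) and 63.6% (control) for members, beside 10.1 and 11.3% over all genes. These rates therefore do not tell how many changed members the fit would call. Alternatives used DESeq2 1.42.0 and limma 3.58.1, other scalings and filters, log2 TPM plus a pseudocount (1 or 0.1), a block on the replicate number, the summed unzonated hepatocyte genes as a covariate, and fits with libraries left out.

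The members, the gene lists and the tests were chosen with earlier results of these data known. Values in every library are given for members that passed, for the 6 with the highest mean CPM, and for the member with the smallest p in each role. Those of Saa1, Saa2, Hp and the untested Orm2 were added after they were seen. In a comparison list the 3 called genes with the smallest p are named, or the 2 with the smallest p. Some genes that this rule takes are not reported here. Shared 31-base words were counted over GENCODE M21 transcripts.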

Additional observations from a re-analysis of the deposited data

Results flagged for a closer look

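The 43 members and their sum were each read separately in the 5 knockout-labelled and the 5 control libraries, and these 88 groups of 5 were examined for a library far from the others. Chance flags about 1 in 20 such groups. The single case was Saa4 in knockout-labelled library 1, at 4.28 CPM, beside 0.586 to 1.60 CPM in the other knockout-labelled libraries and 1.45 to 9.94 CPM in the controls. Its gap to the nearest library was 0.726 of the range of its group, above the Dixon critical value of 0.71. The same library had the highest sum of neutrophil markers, 470 CPM, and their part in the Saa4 value was not tested.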

How the results depend on the processing

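Of the 42 members tested, 13 were lower and 0 higher, and 0 were higher under every alternative run. The count of lower members was 12 with library size alone, 13 with DESeq2's size factors, 17 without robust estimation, 9 of 34 with a minimum count of 50, 17 without controls 4 and 5, and 15 with a replicate block. These were 28.6, 31.0, 40.5, 26.5, 40.5 and 35.7% of the members, beside 6.81, 9.37, 9.23, 10.4, 5.61 and 7.55% of all genes. The count was 2 with no filter, 22 with DESeq2's own test, 2 with limma-voom, 2 with limma on log2(TPM + 1), 2 on log2(TPM + 0.1) and 4 with the hepatocyte covariate. These were 4.65, 52.4, 4.76, 4.76, 4.76 and 9.52% of the members, beside 3.9, 10.7, 8.54, 4.41, 4.44 and 8.73% of all genes. Leaving out 1 library at a time gave counts of 2 to 22. The cause of these moves was not tested. Under the block, Serpina6 and Apoc4 lost their call and Apoa1, Apom, F10 and Itih4 gained one. Same-numbered libraries did not all deviate together (correlations of -0.20, 0.35, 0.01, 0.11 and 0.28 for numbers 1 to 5, with the own number the best match for 2 of 5), so the numbers are not taken to pair samples. Over all genes, 1366 were lower and 1593 higher (53.8% of calls higher), beside 1024 and 1968 (65.8%) with library size alone, which moved the median of all genes by 0.05, and 664 and 1819 (73.3%) on log2(TPM + 1). For the 13 called genes, 153 of 282 alternative values kept direction and side of the threshold, 129 kept direction only and 0 turned sign. Of 634 for the other members, 30 passed the threshold and 14 turned sign. Those were Alb (0.0539 on log2(TPM + 1), 0.0541 on log2(TPM + 0.1), 0.0946 with the covariate, -0.33 to 0.12 with 1 library left out), Trf (0.00364 with library size alone, 0.0685 with the covariate, -0.18 to 0.17 with 1 library left out) and Ambp (-0.037 to 0.24 with 1 library left out). Lect2 stayed past the threshold in 21 of 21 alternatives (log2 fold change -4.83 to -2.39), Apof in 20 of 22 and Apoa4 in 16 of 21, and the other 10 called genes in 8 to 11. Few counts limit Lect2, Serpina6 and Orm2.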
